A study of Mus musculus with 9 samples.

Results

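The genes described here carry out cystine uptake and the synthesis, reduction, breakdown and export of glutathione in the mouse lung. They were chosen by symbol: Slc7a11 and Slc3a2 (the cystine transporter), Gclc, Gclm and Gss (synthesis), Gsr and Glrx (reduction), Ggt1 and Ggt5 (breakdown) and Abcc1 (export). All 10 were found among the 18875 genes of the deposited table, and all 10 reached 1 TPM (a relative transcript abundance that allows for length) in at least 3 libraries, as did 13991 genes in all, which were tested. Slc7a11 was under 1 TPM in every PBS library and passed this filter only through the PM2.5 libraries. The 9 mRNA libraries, 3 per group, came from whole lungs of wild-type (WT) mice of the inbred strain BALB/c. Long-term PM2.5 mice were given fine airborne particulate matter into the nose at 10 mg/kg, 6 times with 3 days between doses, and short-term PM2.5 mice were given that dose 1 time. The PBS group is labelled as long-term exposure to PBS, so that no control here matches the duration of the short-term group. Ages, the time from the last dose to collection and whether the samples of a group are separate mice are not given in the sources used here, so p-values measure the spread between these samples, which may be technical.

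Glutathione is the main soluble thiol of cells and of the fluid that lines the airways, where it takes up oxidants and electrophiles. Cystine enters cells in exchange for glutamate through a transporter made of a carrier chain, Slc7a11, and a heavy chain, Slc3a2, is reduced to cysteine, and is joined to glutamate by glutamate-cysteine ligase, the rate-limiting enzyme, made of a catalytic subunit (Gclc) and a modifier subunit (Gclm). Glutathione synthetase (Gss) adds glycine. Oxidised glutathione is reduced again by Gsr, glutaredoxin (Glrx) removes glutathione from protein thiols, gamma-glutamyltransferases at the cell surface begin its breakdown, and Abcc1 pumps glutathione conjugates and oxidised glutathione out of cells. Gclc, Gclm, Gsr, Slc7a11 and Abcc1 are textbook targets of Nrf2, the transcription factor named in the title of the study, and Slc7a11 and Slc3a2 are also targets of ATF4, the factor of the amino acid response.

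Start-site windows show which of these genes hold the letters of the elements bound by these factors. RefSeq windows on GRCm38.p6, from 250 bases before to 50 bases after a transcript start, were matched by gene ID for 6 of the 10 genes (Slc7a11, Slc3a2, Gclm, Gss, Ggt1 and Glrx). Both strands were searched for TGACNNNGC, the core of the antioxidant response element bound by Nrf2 with small Maf proteins, and for TGATGNAA, the core of the element bound by ATF4 with C/EBP proteins. The first stood in 12.4% of all 32851 windows of 300 bases and the second in 4.0%. The Slc7a11 window held the ATF4-type core in both orientations, starting 66 and 47 bases before the start and separated by 11 bases, and no antioxidant core. The Gclm window held 1 antioxidant core, on the opposite strand 134 bases before the start, and no ATF4-type core. Of the 4 Ggt1 windows 3 held an antioxidant core, and those of Slc3a2, Gss and Glrx held neither. A link between cores and changes in level was not tested. The stretches of Slc7a11 and Gclm are shown as examples, picked with the results known. Each is written 5′ to 3′ on the strand of the gene with the matched core in capitals, Slc7a11 on the minus strand at chr3:50443638-50443694 and Gclm on the plus strand at chr3:122245408-122245446.
Slc7a11: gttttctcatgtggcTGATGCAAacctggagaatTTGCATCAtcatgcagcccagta
Gclm: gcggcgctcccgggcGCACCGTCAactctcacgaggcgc
A match says only that these letters occur, and binding was not measured.

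The libraries differ in a way that touches these genes. Across tested genes (not independent of each other), Spearman correlations were 0.988 to 0.993 within PBS and within long-term PM2.5 and 0.960 to 0.988 within short-term PM2.5. Long transcripts were low in the short-term libraries: for the tested genes with the longest transcripts (692 genes, median 9672 bases) the median log2 difference from the PBS mean was -1.35, -0.55 and -0.82 in short-term replicates 1, 2 and 3, against -0.12 to 0.032 in the long-term libraries. Values are therefore given as deposited. For the 10 genes and the counts of the lists around the pathway, corrected values are given too. Corrected here means after removal of the trend of each library with transcript length and GC content. Among all genes called changed (limma, adjusted p under 0.05), the lower share was 15.3% as deposited, 25.9% after median-ratio scaling, 44.8% after quantile normalization and 49.4% corrected in the comparison of long-term PM2.5 with PBS. It was 77.5%, 53.2%, 51.9% and 52.3% in that of short-term PM2.5 with PBS, and 14.0%, 42.3%, 50.2% and 53.6% between the 2 exposures. Median-ratio scaling moved the median log2 change of all tested genes from -0.34 to -0.05 (short-term PM2.5 against PBS) and from 0.41 to 0.08 (long-term against short-term PM2.5).

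The first comparison set repeated PM2.5 doses against PBS. Slc7a11, Gsr and Ggt5 rose, 0 of the 10 genes fell (limma; also 0 at an unadjusted p under 0.05), and 7 did not pass, against 9.51% of all tested genes called higher and 1.72% called lower. The median log2 change of the 10 genes was 0.43, and that of all tested genes 0.03. Corrected, 6 rose (Gclc, Glrx and Abcc1 in addition) and 0 fell, against 12.9% higher and 12.6% lower of all genes. The count of 3 became 1, Slc7a11, without PBS replicate 1, PBS replicate 2, long-term replicate 1, long-term replicate 2 or short-term replicate 3, and 5 without short-term replicate 1 or 2.

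The second comparison set the single dose against the same PBS libraries, so both share their reference. Slc7a11, Slc3a2, Ggt5 and Glrx rose and Gclm and Abcc1 fell, while 11.7% of all tested genes were called higher and 40.3% lower. The 10 genes had a median log2 change of 0.06, and all tested genes one of -0.34. Corrected, 5 rose (Gsr in addition) and 1, Gclm, fell, against 23.7% and 26.0% of all genes. The 4 higher genes kept their calls in all 9 fits that left out 1 library, and Abcc1 lost its call in 8 of them.

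Long-term against short-term PM2.5 tested the difference between the exposures. Gclc, Gclm, Gsr and Abcc1 were higher and Slc3a2 was lower after long-term exposure, against 43.4% of all tested genes called higher and 7.08% called lower, so that the share of higher genes was near that of all genes. Corrected, only Gclc among the 10 was higher, and Slc7a11, Slc3a2, Ggt1, Ggt5 and Glrx were lower, against 19.2% and 22.3% of all genes.

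**Figure D1:**
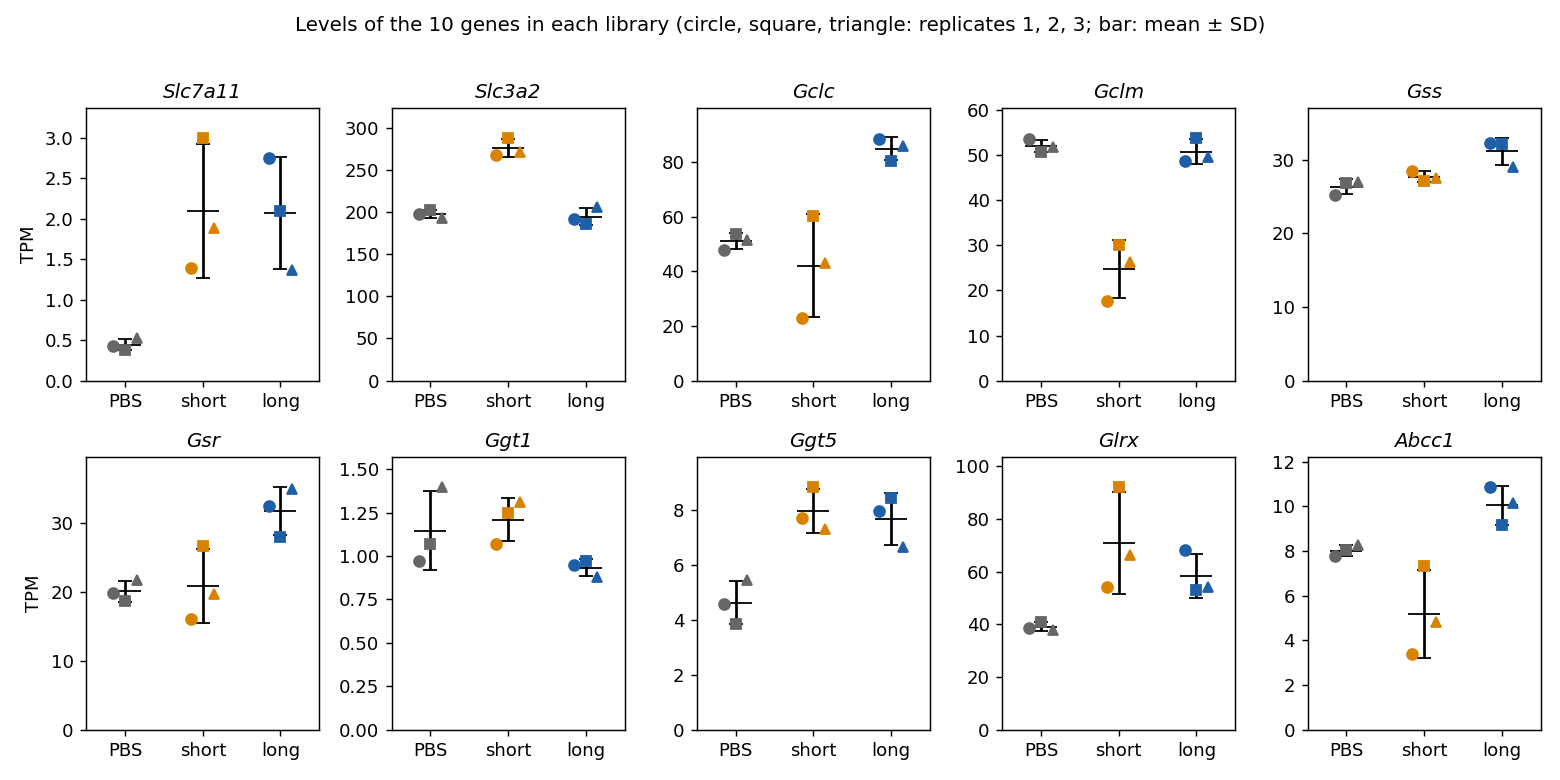
TPM of each gene in every library (points, replicates 1 to 3) with the mean ± SD of each group; each panel has its own axis from 0. Slc7a11 lies between 0.38 and 0.52 TPM in the PBS libraries and between 1.36 and 3.0 TPM in both PM2.5 groups, Gclc stands at 80.6 to 88.6 TPM after long-term PM2.5 only, and Gclm falls to 17.6 to 30.1 TPM after short-term PM2.5.

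The carrier chain of cystine uptake was low in the control lung and higher after both exposures. Slc7a11 (gene 26570, GRCm38, chromosome 3, 49892526 to 50443614) was at 0.43, 0.38 and 0.52 TPM in PBS replicates 1 to 3, at 2.75, 2.09 and 1.36 TPM after long-term PM2.5 and at 1.39, 3.0 and 1.88 TPM after short-term PM2.5. All 6 PM2.5 libraries were above all 3 PBS libraries, and the PM2.5 groups overlapped each other. The mean TPM was 4.66 times that of PBS after long-term and 4.71 times after short-term exposure. As log2(TPM + 1), a scale that damps the change of so low a gene, these were 1.06 ± 0.21 (± SE, n = 3 per group, adjusted p = 0.00881, limma) and 1.07 ± 0.21 (adjusted p = 0.00294), and with log2(TPM + 0.1) both were 1.95. Since Slc7a11 passed the filter only through the PM2.5 libraries, the adjusted p without any filter, 0.014 and 0.00533, belong beside these. The adjusted p ran from 0.00188 to 0.0447 over the fits without 1 library for long-term PM2.5 and from 0.00069 to 0.0146 for short-term PM2.5. Between the exposures the difference was 0.00 (95% interval -0.47 to 0.47) as deposited and -0.93 (-1.29 to -0.58, adjusted p = 0.00139) corrected, and corrected changes against PBS were 1.08 and 2.02. The correction rests on genes of all levels, while Slc7a11 has the longest transcript of the 10 (9223 bases) and a low level, and whether it overcorrects such a gene was not tested.

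The heavy chain behaved differently from the carrier. Slc3a2 (gene 17254, chromosome 19, 8706882 to 8723369), which also carries other amino acid transporters to the membrane, was at 198, 202 and 192 TPM with PBS, at 192, 186 and 206 TPM after long-term and at 268, 288 and 271 TPM after short-term PM2.5. The 3 short-term libraries stood above the other 6, which overlapped. The log2 change was -0.02 ± 0.09 (95% interval -0.23 to 0.18, adjusted p = 0.949) for long-term and 0.48 ± 0.09 (adjusted p = 0.00267) for short-term PM2.5, each against PBS, and -0.50 ± 0.09 (adjusted p = 0.00268) between long-term and short-term PM2.5. Corrected, these were -0.14, 0.70 and -0.85. The calls of the last 2 differences held in all 9 fits without 1 library and in all 11 other alternatives. In TPM, the order in the PBS libraries was Slc3a2, Gclm, Gclc, Glrx, Gss, Gsr, Abcc1, Ggt5, Ggt1 and Slc7a11. Of these neighbours only Gclm and Gclc overlapped. The libraries had duplex-specific nuclease treatment, which lowers abundant transcripts, so levels of different genes compare only roughly.

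Of the subunits of the rate-limiting enzyme, the modifier fell after short-term PM2.5, and the catalytic subunit did not pass against PBS as deposited. Gclc (gene 14629, chromosome 9, 77754535 to 77794485) was at 47.9, 53.8 and 51.4 TPM with PBS, at 88.6, 80.6 and 85.9 TPM after long-term PM2.5 and at 22.8, 60.4 and 43.1 TPM after short-term PM2.5. The long-term libraries stood above all others, and the short-term libraries spread over a wider range than the PBS libraries and overlapped them. Its log2 change for long-term PM2.5 was 0.73 ± 0.27 (95% interval 0.13 to 1.32), which did not pass in the fit of all 9 libraries (adjusted p = 0.130), where the spread of the short-term libraries enters the error. It passed with the 2 compared groups alone (adjusted p = 0.000218), corrected (0.62 ± 0.13, adjusted p = 0.00718) and without short-term replicate 1 (adjusted p = 0.00152), with a range of 3.72e-05 to 0.334 over all alternatives. For short-term PM2.5 the change was -0.38 ± 0.27 (95% interval -0.97 to 0.22, adjusted p = 0.256), 0.00 without short-term replicate 1 and 0.08 corrected. Gclc was higher after long-term than after short-term PM2.5 by 1.10 ± 0.27 (adjusted p = 0.00860), and by 0.54 ± 0.13 corrected (adjusted p = 0.00875).

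Gclm (gene 14630, chromosome 3, 122245557 to 122270732) was at 53.5, 50.8 and 51.8 TPM with PBS, at 48.7, 53.9 and 49.6 TPM after long-term and at 17.6, 30.1 and 26.4 TPM after short-term PM2.5. The short-term libraries were below all others, and the other groups overlapped. The change was -0.04 ± 0.17 (95% interval -0.42 to 0.35, adjusted p = 0.955; -0.07 corrected) for long-term and -1.08 ± 0.17 (adjusted p = 0.00108) for short-term PM2.5 against PBS. Its transcript is 5589 bases long, and the library trends at its length and GC content came to a difference of -0.76 between short-term and PBS libraries. Corrected, the short-term change was -0.31 ± 0.11 (adjusted p = 0.0374), and the difference between long-term and short-term PM2.5 went from 1.04 ± 0.17 (adjusted p = 0.00152) to 0.25 ± 0.11 (adjusted p = 0.0965).

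The catalytic and modifier subunits were near equal in TPM in the control lung and unequal after both exposures. The ratio of Gclc to Gclm, a measure chosen after the values were seen and given as a description, was 0.895, 1.06 and 0.992 with PBS, 1.82, 1.49 and 1.73 after long-term and 1.29, 2.01 and 1.63 after short-term PM2.5. All 6 PM2.5 libraries were above the PBS libraries. Against PBS the log2 ratio was 0.77 higher after long-term and 0.72 higher after short-term PM2.5, and 0.69 and 0.39 higher corrected.

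**Figure D2:**
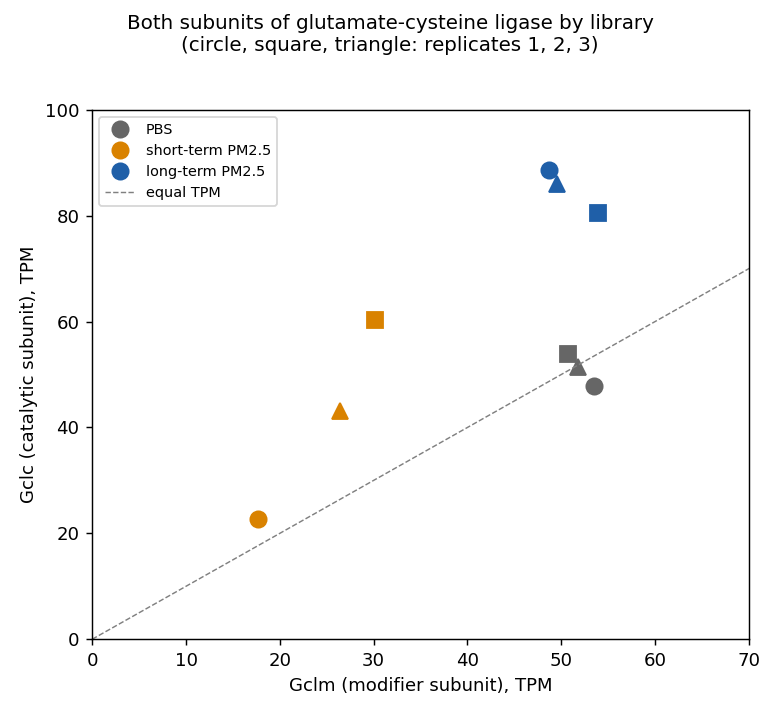
TPM of the catalytic subunit Gclc against that of the modifier subunit Gclm in each of the 9 libraries, with a dashed line of equal TPM. The PBS libraries lie on the line, the long-term libraries above it at a PBS-like level of Gclm, and the short-term libraries above it at a lower level of Gclm, with ratios of 1.29 to 2.01.

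Glutathione synthetase did not pass in any of the 3 comparisons. Gss (gene 14854, chromosome 2, 155563181 to 155592810) was at 25.2 to 27.0 TPM with PBS, 29.1 to 32.3 TPM after long-term and 27.1 to 28.5 TPM after short-term PM2.5. The change was 0.23 ± 0.11 (95% interval -0.01 to 0.48, adjusted p = 0.260) for long-term and 0.07 ± 0.11 (95% interval -0.18 to 0.31, adjusted p = 0.618) for short-term PM2.5, and 0.09 and 0.06 corrected. Gss overlaps Acss2 on the opposite strand, and where reads are counted without strand those of the shared part cannot be told apart.

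Among the reducing enzymes, glutathione reductase was higher after long-term exposure. Gsr (gene 14782, chromosome 8, 33652523 to 33698163) was at 19.9, 18.6 and 21.7 TPM with PBS, at 32.4, 27.9 and 34.8 TPM after long-term and at 16.0, 26.6 and 19.7 TPM after short-term PM2.5. The long-term libraries were above all others, and the short-term libraries lay on both sides of PBS. The change for long-term PM2.5 was 0.63 ± 0.18 (adjusted p = 0.0470), close to the threshold: the call was lost in 7 of 9 fits without 1 library, all but those without short-term replicate 1 or 2 (adjusted p = 0.0745 to 0.169), and in 5 of 11 other alternatives, among them no filter (adjusted p = 0.0598) and log2(TPM + 0.1) (adjusted p = 0.0536), and held corrected (0.49 ± 0.10, adjusted p = 0.00546). For short-term PM2.5 it was 0.02 ± 0.18 (95% interval -0.38 to 0.42, adjusted p = 0.930) as deposited and 0.30 ± 0.10 (adjusted p = 0.0281) corrected. The difference between the exposures, 0.61 ± 0.18 (adjusted p = 0.0181), lost its call without long-term replicate 1 or 3 or short-term replicate 3 (adjusted p = 0.0588, 0.0674 and 0.0523) and corrected (0.19 ± 0.10, adjusted p = 0.152).

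Glutaredoxin was high after short-term exposure. Glrx (gene 93692, chromosome 13, 75839868 to 75850154) was at 38.5, 41.05 and 37.7 TPM with PBS, at 68.1, 53.1 and 54.4 TPM after long-term and at 54.2, 92.3 and 66.4 TPM after short-term PM2.5. All PM2.5 libraries were above all PBS libraries, and short-term replicate 2 was highest. The change was 0.81 ± 0.18 (adjusted p = 0.00509; 0.73 corrected) for short-term PM2.5, called under all 20 alternatives. For long-term PM2.5 it was 0.56 ± 0.18 (adjusted p = 0.0806), which did not pass as deposited and passed with the 2 groups alone (adjusted p = 0.00355) and corrected (0.32 ± 0.09, adjusted p = 0.0331), with a range of 0.000538 to 0.317 over all alternatives. Between long-term and short-term PM2.5, whose libraries overlapped, the difference was -0.25 ± 0.18 (adjusted p = 0.265), and -0.41 ± 0.09 corrected (adjusted p = 0.00672).

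Of the enzymes that begin breakdown outside the cell, Ggt5 rose and Ggt1 did not pass. Ggt5 (gene 23887, chromosome 10, 75589340 to 75617200), whose product also converts leukotriene C4 to D4, was at 4.58, 3.86 and 5.44 TPM with PBS, at 7.96, 8.46 and 6.64 TPM after long-term and at 7.72, 8.86 and 7.33 TPM after short-term PM2.5. Every PM2.5 library was above every PBS library. The change was 0.63 ± 0.16 (adjusted p = 0.0320) for long-term PM2.5, a call lost without PBS replicate 1 or 2, long-term replicate 1 or 2 or short-term replicate 3 (adjusted p = 0.123, 0.130, 0.133, 0.146 and 0.0532), and 0.57 ± 0.14 corrected (adjusted p = 0.0151). For short-term PM2.5 it was 0.68 ± 0.16 (adjusted p = 0.00711), called in all 9 fits without 1 library, and 1.2 ± 0.14 corrected. Its neighbour Ggt1 (gene 14598, chromosome 10, 75561604 to 75586200) was at 0.97 to 1.4 TPM with PBS, 0.88 to 0.97 TPM after long-term and 1.07 to 1.31 TPM after short-term PM2.5. The changes of Ggt1 were -0.15 ± 0.12 (adjusted p = 0.611) for long-term and 0.05 ± 0.12 (adjusted p = 0.770) for short-term PM2.5 against PBS; corrected, they were -0.26 and 0.11.

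The calls of the export pump gene against PBS depended on single libraries and on the processing, the correction among it. Abcc1 (gene 17250, chromosome 16, 14361558 to 14475737) was at 7.75, 8.03 and 8.26 TPM with PBS, at 10.9, 9.14 and 10.1 TPM after long-term and at 3.40, 7.31 and 4.82 TPM after short-term PM2.5. The 3 groups did not overlap. The change for long-term PM2.5 was 0.29 ± 0.21 (95% interval -0.18 to 0.76, adjusted p = 0.528), and 0.30 ± 0.10 corrected (adjusted p = 0.0473). For short-term PM2.5 it was -0.59 ± 0.21 (adjusted p = 0.0377). That call was lost in all fits without 1 library but the one without short-term replicate 2 (adjusted p = 0.0532 to 0.0977), and the corrected value was 0.16 ± 0.10 (adjusted p = 0.193). Its transcript has 6792 bases, at which the library trends differed by -0.76 between short-term and PBS libraries. Between long-term and short-term PM2.5 the difference was 0.89 ± 0.21 (adjusted p = 0.00801) as deposited and 0.14 ± 0.10 (adjusted p = 0.284) corrected.

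**Figure D3:**
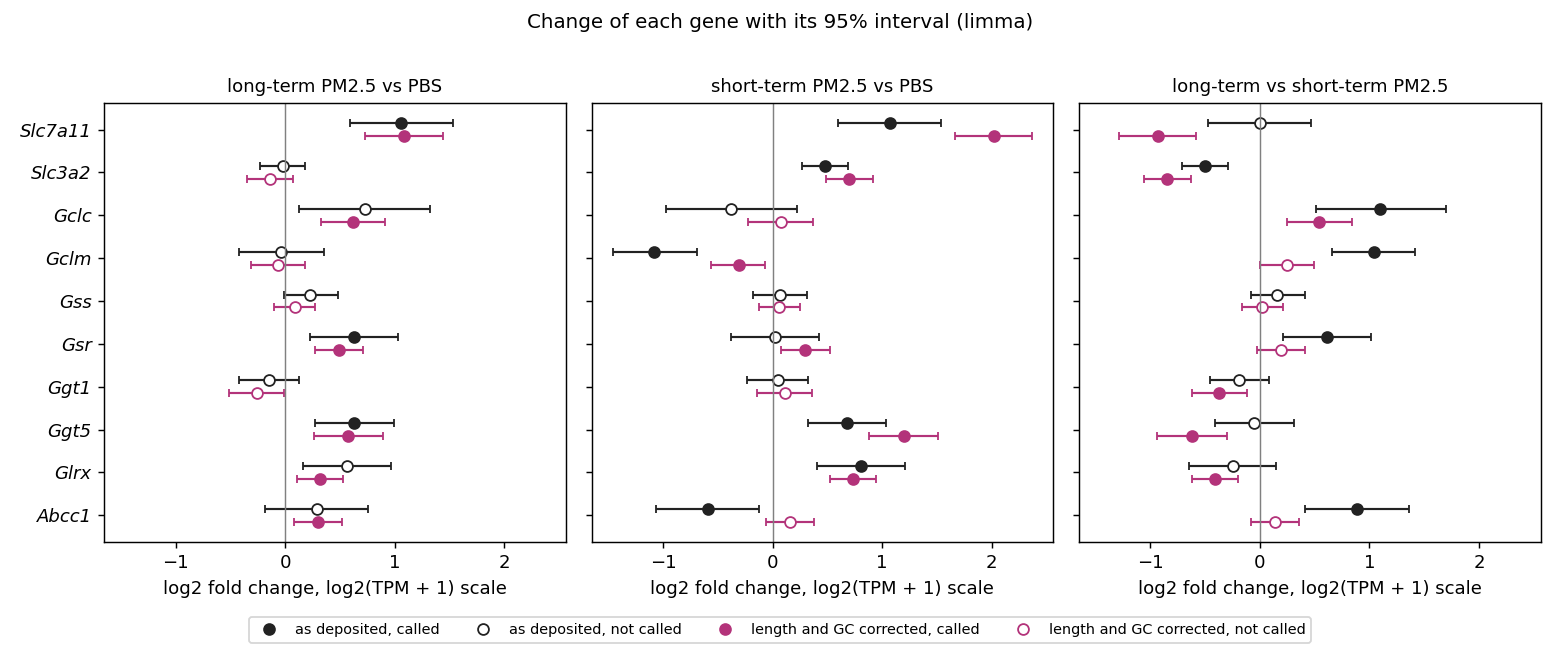
log2 fold change of each gene with its 95% interval in the 3 comparisons, as deposited (black) and corrected for transcript length and GC content (magenta), with filled points for genes called at an adjusted p under 0.05. For short-term PM2.5 the corrected values of Gclm (-0.31) and Abcc1 (0.16) lie to the right of those as deposited (-1.08 and -0.59), and that of Slc7a11 (2.02) lies above 1.07.

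**Figure D4:**
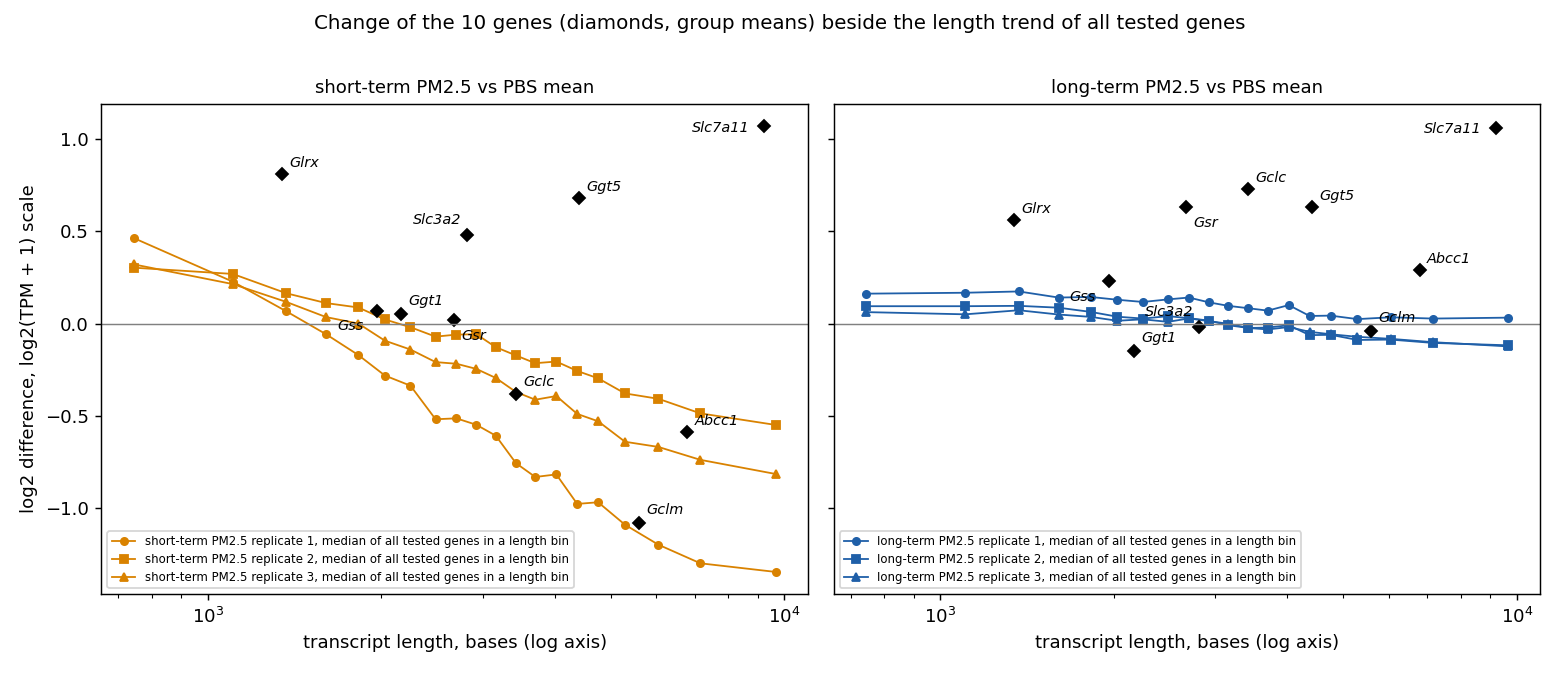
log2 difference from the PBS mean against transcript length for bins of all tested genes (lines, 1 per library) and for the 10 genes (diamonds, group means). In the short-term libraries the lines fall with length, with Gclc, Abcc1 and Gclm near or below them and Glrx, Slc3a2, Ggt5 and Slc7a11 above them; in the long-term libraries the lines are nearly level.

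Genes around the pathway came from 10 lists, chosen like the 10 genes with earlier results of these data known. Their counts stand against 9.51% of all tested genes called higher and 1.72% lower after long-term PM2.5 (12.9% and 12.6% corrected), and 11.7% higher and 40.3% lower after short-term PM2.5 (23.7% and 26.0% corrected), with medians of all genes of 0.03 and -0.34 as deposited. Of the other gene products that begin or complete glutathione breakdown, 5 of 11 tested rose after long-term PM2.5 and 0 fell (median 0.47; 6 and 0 corrected). Ggt6, a further transferase of this family, went from 1.58 ± 0.238 to 4.48 ± 0.140 TPM (mean ± SD, n = 3; log2 change 1.09, adjusted p = 0.000527). The peptidase genes Anpep (0.72, adjusted p = 0.00289) and Lap3 (0.77, adjusted p = 0.00665) rose too. After short-term PM2.5, 2 of 11 rose and 1 fell (median 0.06; 4 and 1 corrected), with Lap3 (0.70) and Cndp2 (0.52) higher and Dpep1 (-1.07) lower. Cndp2 was also called higher after long-term PM2.5 (0.47, adjusted p = 0.0292). Of the partners of Slc3a2 and other carriers, 1 of 8 rose and 0 fell after long-term PM2.5 (median 0.37; 2 and 1 corrected), Slc7a8, a neutral amino acid exchanger (1.06, adjusted p = 0.00424). After short-term PM2.5, 3 rose and 2 fell (median 0.04; 6 and 1 corrected, median 0.45), among them Slc7a8 (0.92), Slc7a7 (0.81) and Slc7a10 (-0.78). Genes of transsulfuration, the route from methionine to cysteine, and of cysteine disposal were called in 0 of 11 after long-term PM2.5 (median -0.15, with 1 higher and 3 lower corrected). After short-term PM2.5, 7 of 11 fell (median -0.66, with 4 lower and 1 higher corrected). Examples were Csad (-1.08, and -0.97 corrected), Mat2a (-1.09, and -0.64 corrected) and Cbs (-0.70, and 0.06 corrected).

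Further lists hold the genes that use or renew glutathione. Among peroxidases and glyoxalases, 1 of 9 rose after long-term and 4 of 9 after short-term PM2.5 (medians 0.11 and 0.45), and 0 fell; corrected, 1 rose and 2 fell after long-term and 3 rose and 1 fell after short-term PM2.5. Gpx2, an epithelial peroxidase, was at 29.2, 33.4 and 36.9 TPM with PBS, at 75.6, 68.9 and 61.5 TPM after long-term and at 150.7, 97.4 and 105.6 TPM after short-term PM2.5, so that the 3 groups stood apart in this order. Glutathione S-transferases rose in 2 and fell in 2 of 20 after long-term PM2.5 (median -0.06; 1 higher and 9 lower corrected), and rose in 2 and fell in 3 after short-term PM2.5 (median -0.05; 1 higher and 6 lower corrected). Mgst2 (0.93) and Gsta4 (0.49; 0.24 corrected, adjusted p = 0.051) were higher and Gsta2 (-0.79) lower after long-term PM2.5, and Gsta2 (-1.99) and Gstm1 (-1.05) were lower and Mgst3 (0.70) higher after short-term PM2.5. Reads of the alpha and mu classes may be split among near-identical genes. Of the other glutaredoxins and Gsto genes, 1 of 5 rose after long-term PM2.5, Gsto1 (1.04, adjusted p = 0.00123; also 1 corrected), and 0 of 5 passed after short-term PM2.5 (3 rose corrected). NADPH, which Gsr consumes, is made by enzymes of which 3 of 7 rose and 0 fell in each exposure (medians 0.30 and 0.10; 2 higher and 0 lower, and 4 higher and 1 lower, corrected), with Pgd at 0.65 and 0.64 and G6pdx at 0.43 and 0.39 for long-term and short-term PM2.5 (G6pdx corrected 0.30, adjusted p = 0.0983, and 0.60). Other export genes passed in 0 of 8 after long-term PM2.5 (1 higher corrected) and fell in 3 of 8 after short-term PM2.5 (medians 0.03 and -0.36), with Slco2b1 at -0.95, Abcc10 at -0.41 and Slc25a40 at -0.62, a share of lower calls near that of all genes. Corrected, 3 rose and 1 fell, and these values were -0.45, 0.18 and -0.24 (adjusted p = 0.0366, 0.199 and 0.0726).

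A list of 20 tested genes holds Nrf2, its partners and further textbook targets. Of these, 4 rose and 0 fell after long-term PM2.5 (median 0.18; 5 and 2 corrected), and 7 rose and 8 fell after short-term PM2.5 (median -0.21; 8 and 4 corrected), the lower share near the 40.3% of all tested genes. Hmox1, haem oxygenase, was at 37.0, 44.8 and 42.7 TPM with PBS, at 85.5, 70 and 60.4 TPM after long-term and at 171.9, 149.4 and 142.1 TPM after short-term PM2.5, with no overlap between groups and log2 changes of 0.77 (adjusted p = 0.00665) and 1.87 (adjusted p = 2.76e-05). Akr1b8, an aldo-keto reductase, rose by 0.88 and 1.21. Ftl1, the ferritin light chain, rose by 0.73 after long-term (adjusted p = 0.00412) and by 0.69 after short-term PM2.5 (adjusted p = 0.00196). Nqo1, a quinone reductase much used as a marker of Nrf2, stayed at 2.61 to 5.43 TPM over all libraries, with changes of 0.21 (adjusted p = 0.613) and -0.19 (adjusted p = 0.394). Txnrd1, thioredoxin reductase, had 0.57 (adjusted p = 0.0914; 0.48 and 0.00281 corrected) for long-term and 0.09 (adjusted p = 0.697; 0.54 and 0.000639 corrected) for short-term PM2.5. The mRNA of Nrf2 itself, Nfe2l2, fell after short-term PM2.5 by 0.69 on the log2 scale (adjusted p = 0.0248; -0.40 corrected), and had 0.14 (adjusted p = 0.831) for long-term PM2.5. Keap1, its inhibitor, had -0.03 (adjusted p = 0.934) and -0.23 (adjusted p = 0.0911). Corrected, the short-term change of Keap1 was 0.12 (adjusted p = 0.204, limma). Ephx1, epoxide hydrolase, fell after short-term PM2.5 (-0.98, adjusted p = 0.000298). For long-term PM2.5, Ephx1 had -0.35 (adjusted p = 0.087, limma) as deposited and was called lower corrected (-0.55, adjusted p = 0.00177).

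Genes of the amino acid response, the other textbook control of the cystine transporter, rose in 2 and fell in 1 of 17 after long-term PM2.5 (median 0.00; 3 and 4 corrected) and rose in 5 and fell in 2 after short-term PM2.5 (median 0.19; 7 and 2 corrected). Mthfd2, a mitochondrial folate enzyme, rose in both (0.91, adjusted p = 0.00661, and 1.31, adjusted p = 0.000443). Phgdh of serine synthesis rose in both too (0.71, adjusted p = 0.0306, and 0.69, adjusted p = 0.0112). Ddit3 (-0.53) was lower after long-term PM2.5. After short-term PM2.5, Shmt2 (0.54, and 0.64 corrected) was higher and Vldlr (-1.4, and -0.50 corrected) lower. Atf4 mRNA was at 244.1 to 273.6 TPM with PBS, 217.9 to 230.5 TPM after long-term and 277.1 to 319.3 TPM after short-term PM2.5. As deposited it did not pass against PBS (-0.21, adjusted p = 0.271, and 0.19, adjusted p = 0.136), though all long-term libraries were below PBS and the corrected long-term change was called (-0.39, adjusted p = 0.00767). It was lower after long-term than after short-term PM2.5 (-0.39, adjusted p = 0.0103).

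**Figure D5:**
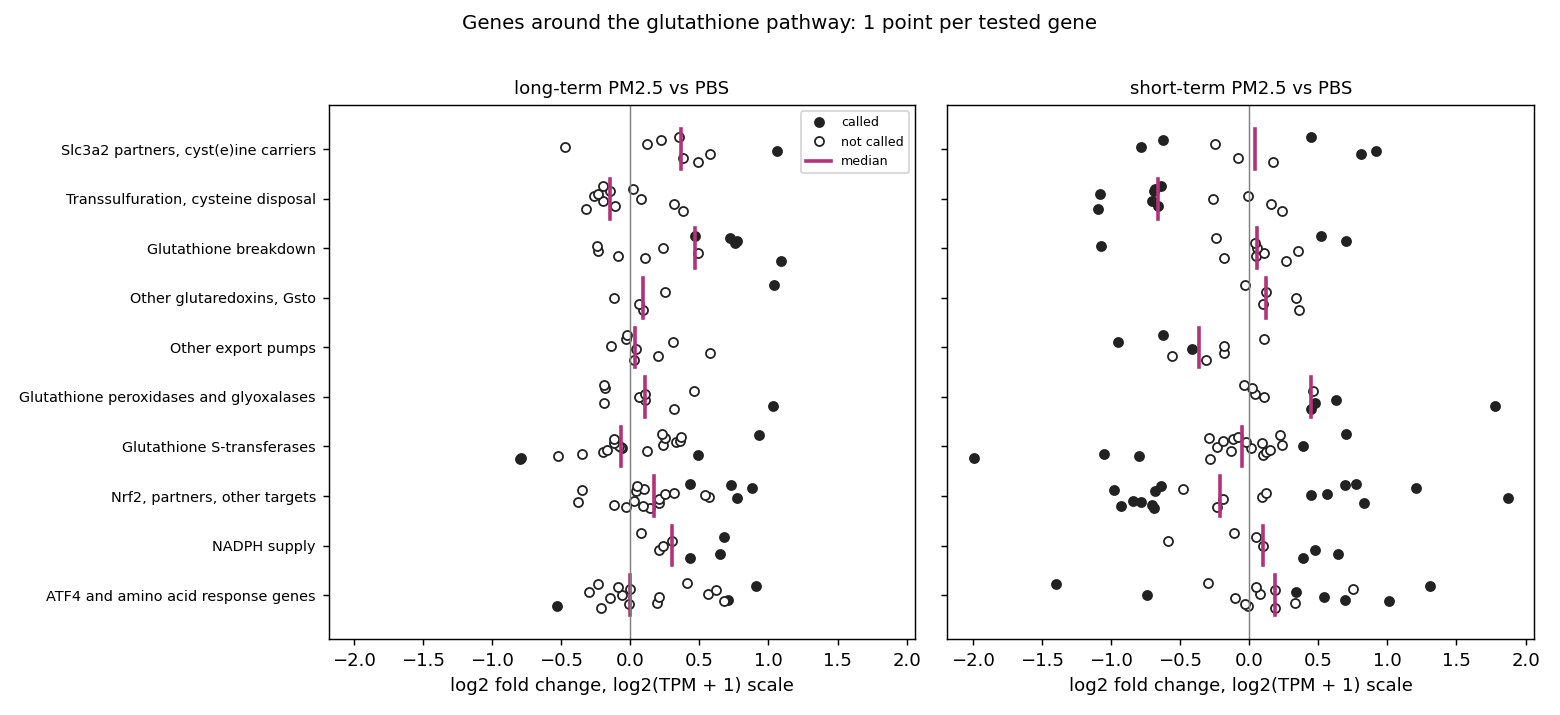
log2 fold change against PBS of every tested gene of the 10 lists around the pathway, 1 point per gene (filled where called at an adjusted p under 0.05) with the median of each list as a bar. After short-term PM2.5 the Nrf2 list has 7 of 20 called higher and 8 lower (8 and 4 corrected), beside 11.7% and 40.3% of all tested genes, and after long-term PM2.5 the breakdown list has 5 called higher.

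Markers of several cell types differed between the groups beside these genes. In bulk tissue, fewer cells of a type and less RNA per cell cannot be told apart. The labelled tissue was borne out by its markers, with summed alveolar type 2 markers at 35800 to 59400 TPM in every library. Alveolar macrophage markers (13 of 14 in the table) summed to 832 to 1060 TPM with PBS, 1540 to 1840 TPM after long-term and 497 to 719 TPM after short-term PM2.5. A large part of the long-term rise of this sum came from Chil3, at 55.5 to 127.4 TPM with PBS and 427.9 to 633.5 TPM after long-term PM2.5. Fabp1 went the other way, from 10.2 to 27.1 TPM with PBS to 6.85 to 8.17 TPM after long-term PM2.5. The count of alveolar macrophage markers was 7 higher and 1 lower for long-term and 1 higher and 5 lower for short-term PM2.5 against PBS. Marker counts were not corrected and stand against the shares of all tested genes. These were 9.51% higher and 1.72% lower for long-term PM2.5, and 11.7% higher and 40.3% lower for short-term PM2.5. The 5 of 13 lower after short-term PM2.5 were thus near the share of all genes. Markers of monocyte-derived and interstitial macrophages (14 of 14) summed to 375 to 454, 1010 to 1370 and 784 to 847 TPM, in the order PBS, long-term and short-term PM2.5. Of these, 10 were higher after long-term and 8 after short-term PM2.5. Neutrophil markers (12 of 12) summed to 389 to 642, 495 to 836 and 1060 to 1600 TPM, with 1 higher after long-term and 9 higher after short-term PM2.5. Ciliated cell markers (11 of 12) summed to 1870 to 2240, 2270 to 2800 and 1330 to 1760 TPM, and endothelial markers (12 of 12) to 5750 to 6210, 3850 to 4340 and 4540 to 5180 TPM. No marker of these lists was at 0 in all libraries. The mean TPM of Gclc and Gsr was highest in the long-term group, which had the highest alveolar macrophage and ciliated cell sums. That group also had the highest sum of monocyte-derived macrophage markers. Its alveolar type 2 sum was highest too, at 58900 to 59400 TPM, against 49900 to 51300 TPM with PBS and 35800 to 43800 TPM after short-term PM2.5. The match is thus not particular to any of these cell types. The difference of Gsr between the exposures passed as deposited (0.61, adjusted p = 0.0181, limma) and did not pass corrected (0.19, adjusted p = 0.152). The mean of Glrx was highest in the group with the highest neutrophil sum, but its exposure groups overlapped. Their difference did not pass as deposited (adjusted p = 0.265, limma) and passed corrected (-0.41, long-term minus short-term PM2.5, adjusted p = 0.00672). Slc7a11 and Ggt5 were raised in both groups with raised sums of monocyte-derived macrophage markers. The part of these cells in the results was not tested.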

How the data were processed

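TPM values of 9 whole-lung mRNA libraries were used as deposited by the authors. The submitters' processing notes name RSEM, HISAT2, DESeq2 and Bowtie2 without versions or roles, and for 8 of 9 samples the build GRCm38.p6. Libraries had duplex-specific nuclease treatment, per the labels' protocols, which lowers abundant transcripts. TPM keeps no read number, so depth is unknown and no counting interval was computed.

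Genes that reached 1 TPM in 3 or more libraries were tested on log2(TPM + 1) with limma 3.58.1 (R 4.3.3), 1 fit of 3 groups, eBayes with intensity trend, two-sided, Benjamini-Hochberg adjustment over 13991 genes and a threshold of 0.05. The correction subtracts from each library natural splines (5 degrees of freedom each) in the length and GC content of the longest coding transcript (GENCODE M21), fitted to its deviation from the all-library mean; 152 genes of unknown length drop out. Scripts were tested on simulated data. Python 3.11.15 drew the figures.

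Named were all 10 genes, per related list up to 3 called genes with the smallest p, and Nfe2l2, Keap1, Nqo1, Hmox1, Txnrd1 and Atf4; some of these are given by counts alone. For the gene of the 10 with the largest long-term change, the 5 most correlated genes were named, leaving out predicted, RIKEN and pseudogene symbols. Members and lists were chosen with earlier results of these data known. Alternatives are listed under the dependence on processing.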

Additional observations from a re-analysis of the deposited data

Results flagged for a closer look

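For 5 of the 10 genes the effects of long-term and short-term PM2.5 differed in the test of the difference itself (limma, adjusted p under 0.05, 3 against 3 libraries), where 43.4% of all tested genes were called higher and 7.08% lower. Long-term minus short-term, the log2 difference was -0.50 for Slc3a2, 1.10 for Gclc, 1.04 for Gclm, 0.61 for Gsr and 0.89 for Abcc1. After the length and GC correction it was -0.85, 0.54, 0.25, 0.19 and 0.14 in this order, and Slc3a2 and Gclc kept their calls.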

How the results depend on the processing

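Alternatives were another pseudocount, no filter, a mean of at least 5 TPM, 2 scalings, the length and GC correction, the 2 compared groups alone, the replicate block, robust eBayes, eBayes without the trend, array weights (whose iterations stopped before convergence) and leaving out each library. At a mean of at least 5 TPM, Slc7a11 and Ggt1 were not tested. For long-term PM2.5 against PBS the 3 higher genes became 1 at a mean of at least 5 TPM, 5 with median-ratio scaling, 6 corrected, 6 with the 2 groups alone, 7 with array weights, and 1 to 5 without 1 library. For short-term PM2.5 the 4 higher genes became 7 after quantile normalization, and the 2 lower genes became 1 without the filter, with either scaling, corrected and with the 2 groups alone, and 1 to 3 without 1 library. Between the exposures the 4 higher genes became 1 corrected and 3 to 4 without 1 library, and the 1 lower gene became 4 with median-ratio scaling, 5 after quantile normalization, 5 corrected, 3 with array weights and 1 to 2 without 1 library. Apart from tested genes and samples removed, the cause was not tested.

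The replicate numbers gave no clear sign of pairing. Same-numbered libraries had correlations of deviations from group means of -0.29 to -0.21, -0.14 to 0.26 and -0.28 to 0.08 in the 3 comparisons. Not every library correlated best with its own number. Deviations within a group of 3 sum to 0, which ties these correlations to each other, so they cannot exclude pairing. With the replicate block, 1 gene was higher for long-term PM2.5 and 1 was lower for short-term PM2.5.

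Of the alternative log2 changes of the 10 genes, 497 kept direction and side of the threshold, 40 lost a call, 41 gained one and 16 changed sign, and Abcc1 was the only 1 of these called in its main comparison. For short-term PM2.5 against PBS these were Gclc (0.076) and Abcc1 (0.16) corrected, Gclc without short-term replicate 1 (0.0016), Ggt1 without PBS replicate 1 (-0.014) and Gsr with array weights (-0.038), without PBS replicate 2 (-0.029) and without short-term replicate 2 (-0.16). For long-term PM2.5 against PBS it was Slc3a2 without long-term replicate 2 (0.0099). Between the exposures these were Gss with median-ratio scaling (-0.21) and quantile normalization (-0.15), Slc7a11 with array weights (0.038), without long-term replicate 3 (0.17) and without short-term replicate 2 (0.20), and Ggt5 in the same settings (0.086, 0.041 and 0.022). Slc7a11 was called higher than PBS in both exposures under every alternative that tested it, as were Slc3a2, Ggt5 and Glrx for short-term PM2.5, and Gclm was called lower there. However, Slc7a11 passed the filter only through the PM2.5 libraries. The fits without 1 library kept the genes filtered on all 9 libraries, and only the fit without a filter was free of this choice. The calls of Slc7a11 under the other alternatives are therefore no independent support.

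Without 1 library, these changes ran from -0.064 to 0.0099 (Slc3a2, long-term against PBS), -0.68 to 0.0016 (Gclc, short-term against PBS), -0.16 to 0.18 (Gsr, same), -0.014 to 0.13 (Ggt1, same), and between the exposures from -0.17 to 0.20 (Slc7a11) and -0.11 to 0.041 (Ggt5).

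Over all tested genes, the long-term calls against PBS (1330 higher, 241 lower) became 748 higher at a mean of at least 5 TPM, 512 lower with median-ratio scaling, 1157 lower after quantile normalization, 1741 lower corrected, 2500 and 1381 with the 2 groups alone, 132 lower with the replicate block and 3027 and 2246 with array weights. Leaving out 1 library gave 794 to 2152 higher and 49 to 1005 lower, both highest without short-term replicate 1. The short-term calls (1632 and 5636) became 3421 higher with median-ratio scaling, 3477 and 3745 after quantile normalization, 3275 and 3592 corrected and 2866 and 8469 with array weights. Between the exposures (6070 and 991) they became 3762 and 2756, 2977 and 2996, 2663 and 3080, and 9227 and 2118 in this order, 3917 higher without long-term replicate 1, and 650 and 615 lower without long-term replicates 2 and 3.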

Other observations

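Slc7a11 had the largest long-term change of the 10 genes, and the 5 tested genes most like it over the 9 libraries, by Pearson correlation of log2(TPM + 1), were Nek6 (0.992), P2ry2 (0.991), Clec4n (0.990), Casp4 (0.990) and Dnajc15 (0.989). The correlation is a description over libraries that share groups. Clec4n, a C-type lectin of myeloid cells also known as dectin-2, went from a mean of 16.0 TPM with PBS to 57.1 TPM after long-term and 57.5 TPM after short-term PM2.5. Casp4, an inflammatory caspase, went from 8.48 to 16.4 and 16.2 TPM, and P2ry2, a receptor for extracellular nucleotides, from 7.11 to 12.2 and 12.3 TPM. Within the 10 genes the highest correlations were those of Slc7a11 with Ggt5 (0.936), Gclc with Abcc1 (0.935) and Slc7a11 with Glrx (0.929), and the lowest was that of Slc3a2 with Gclm (-0.893), and the trend of the short-term libraries with transcript length enters these values.

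Slc7a5, chosen after its values were seen, is another light chain that pairs with Slc3a2 and carries large neutral amino acids. It was at 2.41, 2.90 and 2.66 TPM with PBS, 4.89, 4.32 and 3.34 TPM after long-term and 2.19, 4.22 and 3.12 TPM after short-term PM2.5, and did not pass in either comparison with PBS as deposited (adjusted p = 0.162 and 0.495, limma); corrected, it rose after short-term PM2.5 (0.49, adjusted p = 0.0228). The ratio of Slc7a11 to Slc7a5 in TPM, chosen likewise, was 0.131 to 0.195 with PBS, 0.407 to 0.562 after long-term and 0.603 to 0.711 after short-term PM2.5, with no overlap between the 3 groups.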
